A study of Mus musculus with 14 samples.

Results

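The 43 genes examined encode parts of the synapse, and their mRNA was measured in cultures of mouse primary microglia. They were chosen by name as known synaptic genes, and all 43 were found among the 49315 genes of the count table. The genes fall into 5 classes, with 10 glutamate and GABA receptors, 9 postsynaptic scaffolds and kinases, 5 synaptic adhesion molecules, 14 vesicle and release proteins and 5 transmitter transporters and synthetic enzymes. The cultures came from forebrains of C57BL/6 pups at P6-P7 that were either WT or TIMP2 KO, with 7 libraries for each genotype. The KO is global, so the deletion was present in all cells of the donor pups. TIMP2 is a secreted inhibitor of metalloproteinases. Each library came from an independent isolation from a pool of 5 pups. Male and female pups were pooled, and the paper describes the samples as sex-matched. In each isolation, cells were selected with CD11b microbeads and plated on poly-d-lysine. The comparison asks how loss of TIMP2 relates to the synaptic transcripts that such cultures contain.

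At a synapse, a presynaptic terminal releases transmitter from vesicles, and receptors held in place by scaffold proteins detect it on the postsynaptic side. Adhesion molecules of the neurexin and neuroligin families span the cleft and align both sides. These genes are used most by neurons, but several of them are also transcribed in glia, and microglia are known for taking up synaptic material. Bulk RNA cannot assign a transcript to a cell type, and a lower level can mean fewer cells of a type or less RNA per cell, which cannot be told apart here.

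Libraries held between 38875344 and 48070236 counted reads, and levels are given as CPM, counts scaled to a common library size with TMM factors. The targeted gene, Timp2, lay between 120 and 129 CPM in the KO libraries and between 398 and 495 CPM in the WT libraries, so that expression in KO was lower by −1.92 on the log2 scale (edgeR, adjusted p = 1.53e-12). In every library the 10 microglia markers summed to between 9008 and 11409 CPM. Transcripts used as markers of other cells were present too. The 12 neuron markers summed to 40.6 to 85.1 CPM, the 10 astrocyte markers to 30.6 to 276 CPM and the 10 oligodendrocyte lineage markers to 146 to 207 CPM, and no marker of these lists was at 0 in any library. Most of the oligodendrocyte lineage sum came from Mbp and Cnp, with means of 62.6 and 71.6 CPM. Between the lowest and highest library they differed by 1.25-fold and 1.34-fold, against 21.7-fold for Olig1. Mog averaged 0.182 CPM. Of the remaining lists, 5 border macrophage markers summed to 332 to 712 CPM, 5 endothelial markers to 34.7 to 64.7 CPM, and 5 fibroblast and pericyte markers to 2.38 to 22.1 CPM. Most of the border macrophage sum came from Mrc1, with a mean of 438 CPM, whereas Cd163 averaged 0.596 CPM and Lyve1 0.0421 CPM. Most of the endothelial sum came from Flt1 and Kdr, with means of 27.4 and 16.2 CPM, against 0.464 CPM for Cldn5. Lyve1 fell to 0 in KO replicate 4 and WT replicate 1, and Lum, a fibroblast and pericyte marker, in WT replicate 6.

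Promoter sequence is shown for 4 genes that stand for the patterns described further on. Syt11 was the gene closest to the astrocyte markers across cultures, and Gria2 was related to both neuron and astrocyte markers. Syn1 was related to neuron markers when all 14 libraries were used, and Slc17a7 was not detectably related to the summed level of either list. The sequences are the 250 bases before the RefSeq gene start in GRCm38.p6, written 5′ to 3′ on the strand of the gene. Capitals mark exact matches, on either strand, to the half-sites of the RE1 element, TTCAGCACC and GGACAGCG, to the CRE, TGACGTCA, or to the GC box, GGGCGG. RE1 is the site bound by REST, a repressor of neuronal genes outside neurons. The CRE is bound by CREB and the GC box by Sp1.
Syt11, chr3:88772600-88772849, minus strand: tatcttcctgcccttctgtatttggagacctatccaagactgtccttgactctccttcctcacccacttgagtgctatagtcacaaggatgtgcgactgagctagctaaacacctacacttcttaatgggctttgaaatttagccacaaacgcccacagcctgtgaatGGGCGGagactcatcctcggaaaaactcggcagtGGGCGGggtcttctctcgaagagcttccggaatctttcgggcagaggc
Gria2, chr3:80802836-80803085, minus strand: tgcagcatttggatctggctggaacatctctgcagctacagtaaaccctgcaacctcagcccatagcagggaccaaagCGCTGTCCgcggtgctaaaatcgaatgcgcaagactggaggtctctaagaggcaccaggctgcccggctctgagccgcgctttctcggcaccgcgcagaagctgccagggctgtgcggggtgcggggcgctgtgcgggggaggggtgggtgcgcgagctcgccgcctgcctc
Syn1, chrX:20920919-20921168, minus strand: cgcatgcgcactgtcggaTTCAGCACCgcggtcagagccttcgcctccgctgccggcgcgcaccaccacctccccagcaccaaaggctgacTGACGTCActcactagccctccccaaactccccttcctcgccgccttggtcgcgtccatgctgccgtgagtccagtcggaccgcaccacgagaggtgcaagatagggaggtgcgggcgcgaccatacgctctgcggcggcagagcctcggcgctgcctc
Slc17a7, chr7:45163671-45163920, plus strand: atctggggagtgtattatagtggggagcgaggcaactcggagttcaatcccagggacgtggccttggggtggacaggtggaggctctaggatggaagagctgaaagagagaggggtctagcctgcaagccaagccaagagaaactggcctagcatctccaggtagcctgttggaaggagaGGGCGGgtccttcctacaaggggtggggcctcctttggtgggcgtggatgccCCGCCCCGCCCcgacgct
Of the 43 genes, 31 had at least 1 promoter in the table, with 45 windows in all. A half-site of RE1 was found upstream of 4 genes. TTCAGCACC was present for Nlgn1 and Syn1, in 4.44% of the 45 windows against 0.301% of all 32851 promoter windows. GGACAGCG was present for Gad2 and Gria2, in 4.44% of the 45 windows against 0.992% of all windows. The CRE was present for Syn1 alone among the 31 genes, in 2.22% of the 45 windows and in 1.55% of all windows. A GC box was found in 40.0% of the 45 windows and in 32.7% of all windows. The TATA box, TATAAA, and the E-box, CACGTG, were searched too. Each was found in 4.44% of the 45 windows, against 12.4% and 6.02% of all windows. The median GC content was 58.8% in the windows of the synaptic genes and 52.4% over all windows. These matches describe the letters of the windows and were not tested as binding sites.

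Synaptic transcripts made up a small share of the RNA. The 43 genes took between 0.0186% and 0.0305% of all counts in a library. Between genes, levels were compared as CPM per kb of exon, averaged over the 14 libraries. Vamp2, the vesicle SNARE of transmitter release and of other secretion, was highest at 12.3 CPM per kb. Syt11, a synaptotagmin that does not bind calcium, followed at 5.59, the adhesion molecule Nlgn2 at 3.17 and the vesicle glycoprotein Sv2a at 2.72 CPM per kb. For scale, the microglial receptor Cx3cr1 stood at 224 CPM per kb.

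Altogether 8 genes reached 1 CPM per kb or more. Besides these 4 genes, they were the SNARE Stx1a (1.74), the scaffolds Homer1 (1.64) and Dlg4 (1.58), and the active zone protein Bsn (1.06 CPM per kb). At the other end, 10 genes lay under 0.1 CPM per kb, among them the receptors Grin2a (0.0130), Grm7 (0.0229), Grin2b (0.0236) and Gabrb1 (0.0299 CPM per kb). In the plot of levels, the SD bars of neighbouring genes overlap below 1 CPM per kb, so the order of neighbours there is not resolved by the spread of the cultures.

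**Figure D1:**
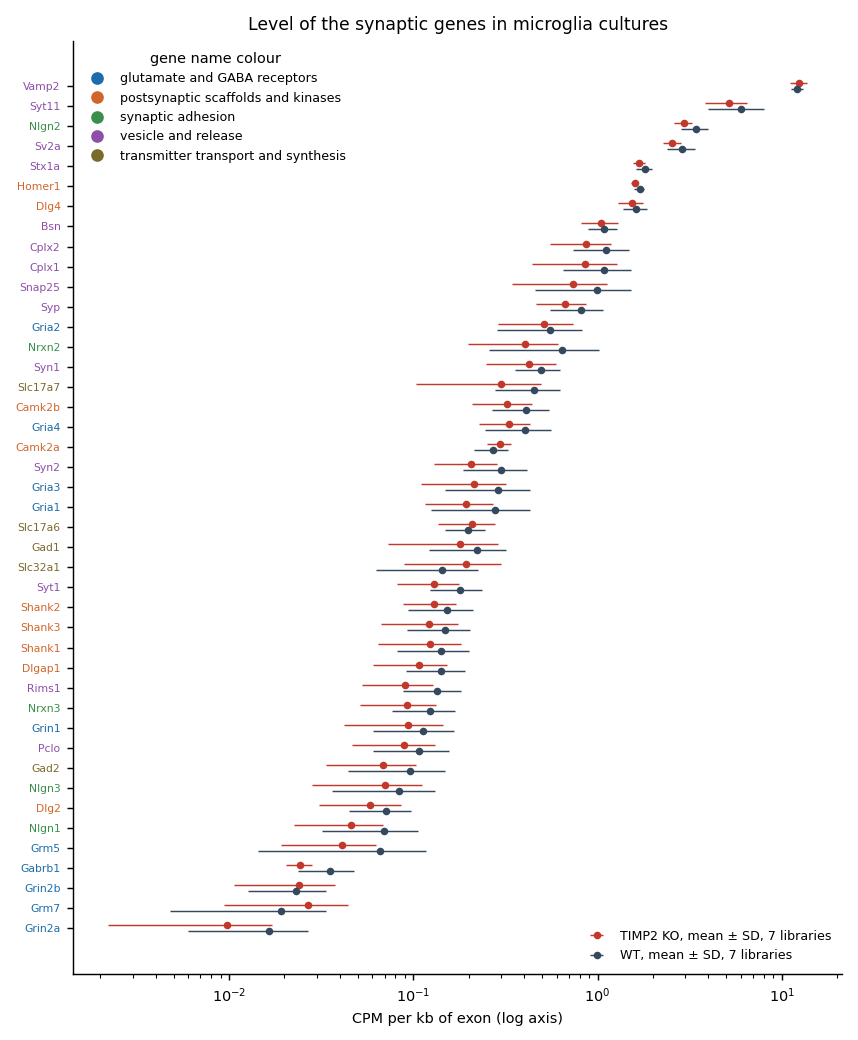
Level of each of the 43 genes in CPM per kb of exon on a log axis, as mean ± SD of 7 TIMP2 KO (red) and 7 WT (dark blue) libraries, with gene names coloured by class. Vamp2 is highest at 12.3 and Grin2a lowest at 0.0130 CPM per kb over all libraries, and the bars of both genotypes overlap for every gene.

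Several of the abundant genes were steady between cultures. Homer1, which links metabotropic glutamate receptors to internal calcium stores, differed by 1.21-fold between its lowest and highest library, Stx1a by 1.33-fold and Vamp2 by 1.37-fold. Dlg4, Sv2a, Nlgn2 and Bsn differed by 1.64-fold to 1.99-fold, and Syt11, the second in level, by 2.62-fold. The highest library was over 2 times the lowest for 35 of the 43 genes. The range was 7.48-fold for the neurexin Nrxn2, 7.51-fold for Slc17a7, the vesicular glutamate transporter VGLUT1, and 21.5-fold for the metabotropic receptor Grm5, which had only 3 counts in its lowest library. Grin2a, an NMDA receptor subunit, had no counts in KO replicate 7, where 3 counts would correspond to 0.0761 CPM.

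In the comparison of TIMP2 KO with WT, none of the synaptic genes passed in the main fit, which had no batch or block term. Of the 43 genes, 42 had enough counts to be tested, and Grm7, a presynaptic metabotropic receptor with 1 to 16 counts per library, did not. In edgeR's quasi-likelihood test, 0 of 42 genes had an adjusted p under 0.05, and the adjusted p of the 42 genes lay between 0.943 and 0.988. Over all 15700 tested genes, 3 passed, or 0.0191%. At an unadjusted p under 0.05, 1 of the 42 was lower in KO, Gabrb1, and none was higher, while 1.62% of all tested genes were lower in KO at that threshold. DESeq2 called 0 of 43 genes, with 3 at an unadjusted p under 0.05, and limma-voom called 0 of 42, with 1. As an alternative, the replicate number was fitted as a block. With it, edgeR called 0 of 42 genes, with 10 at an unadjusted p under 0.05, against 5.87% of all tested genes in either direction. All 10 were lower in KO, namely Rims1, Snap25, Syp, Gabrb1, Cplx1, Syn2, Slc17a7, Syt1, Camk2b and Homer1. Of all 15700 tested genes, 424 were lower in KO at that threshold in this fit. DESeq2 with the block called 1 of 43, Snap25 (adjusted p = 0.0401), with 7 at an unadjusted p under 0.05, against 1.65% of all tested genes. No gene of the 43 had KO and WT libraries that did not overlap, against 0.0828% of all tested genes.

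By sign alone, 37 of the 42 fitted values were below 0, that is, lower in KO, against 49.2% of all tested genes. The median log2 fold change was −0.29 for the synaptic genes and 0.002 over all tested genes. The genes varied together across cultures, as shown further on, so these 37 signs are not separate observations. Leaving out WT replicate 2 moved the median to −0.15, and leaving out KO replicate 2 moved it to −0.45; it was −0.19 without KO replicate 4. The count at an unadjusted p under 0.05 was 0 without WT replicate 6 and 7 without KO replicate 2. It was 6 without WT replicate 5, 4 without KO replicate 1, 3 without WT replicate 1, and 2 without KO replicate 6, KO replicate 7, WT replicate 4 or WT replicate 7. Over all tested genes, the share at that threshold in either direction was 3.37% with all libraries and between 2.38% and 6.31% in the fits without a library (3.95% without KO replicate 2, 3.01% without WT replicate 6 and 6.28% without WT replicate 5). In none of the 14 such fits did a synaptic gene pass the adjusted threshold. Marker sums of 4 of the 6 lists for other cells were lower on average in KO, with differences of −7.17 CPM for neuron markers (exact permutation p = 0.29), −48.1 CPM for astrocyte markers (p = 0.218), −10.6 CPM for oligodendrocyte lineage markers (p = 0.248) and −2.69 CPM for fibroblast and pericyte markers (p = 0.418). Endothelial markers differed by 7.32 CPM (exact permutation p = 0.147) and border macrophage markers by 0.836 CPM (p = 0.99), both higher on average in KO, though the latter was −26.5 CPM without KO replicate 5. Microglia markers were higher by 488 CPM in KO (exact permutation p = 0.195), or 301 CPM without WT replicate 1. Without WT replicate 4, the differences were −3.81 CPM for neuron, −22.7 CPM for astrocyte, −6.0 CPM for oligodendrocyte lineage and −0.832 CPM for fibroblast and pericyte markers. Without KO replicate 5 the neuron marker difference was −4.31 CPM, and without KO replicate 4 the oligodendrocyte lineage difference was −6.78 CPM. By gene, 11 of 12 neuron markers, 10 of 10 astrocyte markers and 7 of 9 tested oligodendrocyte lineage markers had a fitted value below 0. The part of these cells in the sign of the synaptic genes was not tested.

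**Figure D2:**
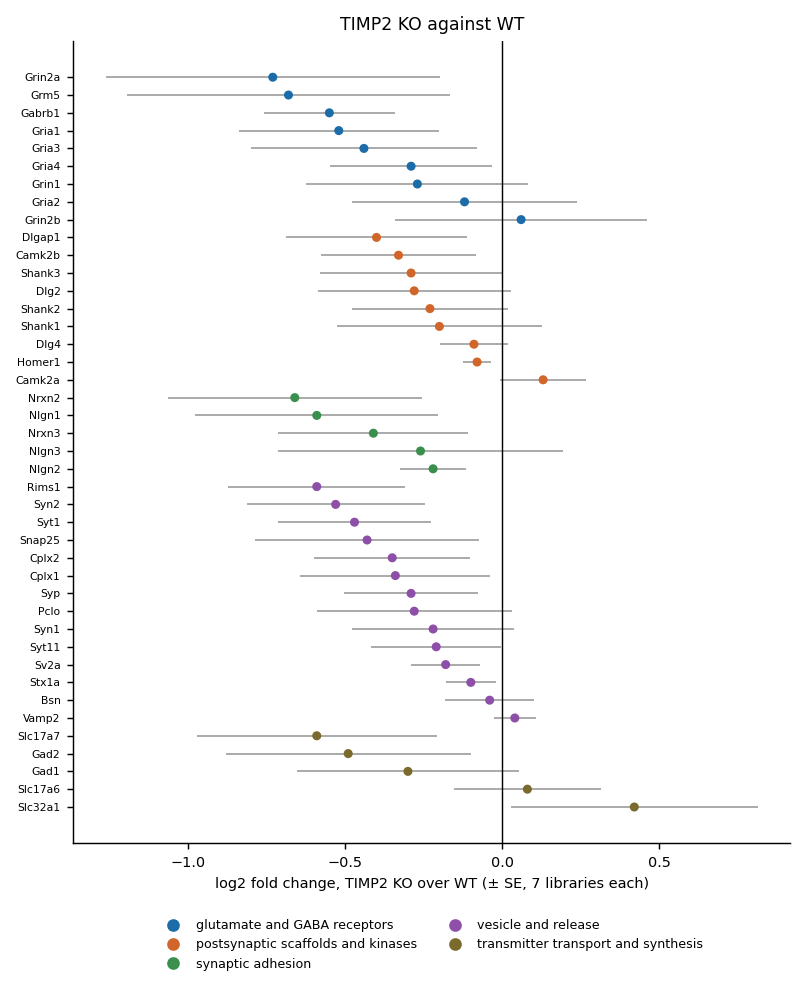
Fitted log2 fold change of TIMP2 KO over WT for the 42 tested genes, with bars of ± SE from 7 libraries per genotype and colours for the 5 classes. Points lie between −0.73 (Grin2a) and 0.42 (Slc32a1), 37 of 42 are left of 0, and none passed an adjusted p of 0.05 in this edgeR fit without a block.

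Among glutamate and GABA receptors, 8 of the 9 tested genes had a fitted value below 0, with a median of −0.44. Gabrb1, a beta subunit of the GABA-A receptor on chromosome 5 (GRCm38, 71658113 to 72149037, plus strand), ranged in KO from 0.272 to 0.417 CPM with a median of 0.332. In WT it ranged from 0.323 to 0.789 CPM with a median of 0.479. All 7 KO libraries lay below the WT median, and the groups overlapped, since WT replicates 1, 5 and 7 were within the KO range. Its log2 fold change was −0.55 (SE 0.208, adjusted p = 0.943, edgeR). These levels rest on 11 to 34 counts per library.

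Gria2 had the highest receptor level per kb. It encodes the AMPA receptor subunit that limits calcium entry and lies on chromosome 3 (80681450 to 80802835, minus strand). In KO it ranged from 2.47 to 11.5 CPM with a median of 9.82, and in WT from 2.96 to 15.4 CPM with a median of 8.48. Replicate 5 was lowest in both genotypes, WT replicate 4 was highest, and the groups overlapped almost fully. The log2 fold change of −0.12 (SE 0.357, adjusted p = 0.977, edgeR) turned positive without KO replicate 5 (0.04) or WT replicate 4 (0.08). Of the other receptor genes, the AMPA subunits Gria1, Gria3 and Gria4 had fitted values of −0.52, −0.44 and −0.29. The NMDA subunits Grin1, Grin2a and Grin2b had −0.27, −0.73 and 0.06, and Grm5 had −0.68.

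Postsynaptic scaffolds and kinases had smaller fitted values, with a median of −0.23 and 8 of 9 below 0. Homer1 (chromosome 13, 93299635 to 93405129, plus strand) ranged from 17.9 to 20.3 CPM in KO, median 19.3, and from 18.3 to 21.7 CPM in WT, median 20.5. It was among the steadiest of the genes, and although all 7 KO libraries lay below the WT median, the groups overlapped. The log2 fold change was −0.08 (SE 0.0435, adjusted p = 0.943, edgeR). Camk2b, a subunit of the calcium and calmodulin dependent kinase II, ranged from 1.70 to 4.58 CPM in KO (median 2.55) and from 2.08 to 5.94 CPM in WT (median 3.78). Replicate 2 was highest in both genotypes, and its log2 fold change was −0.33 (SE 0.248, adjusted p = 0.943, edgeR), or −0.18 without WT replicate 2. Camk2a, the other main neuronal subunit of that kinase, was the member of this class with a fitted value above 0 (0.13). PSD-95, encoded by Dlg4, had −0.09, its relative Dlg2 −0.28 and the scaffold Dlgap1 −0.40, and the 3 Shank genes lay between −0.29 and −0.20.

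All 5 synaptic adhesion genes had fitted values below 0, from −0.66 for Nrxn2 to −0.22 for Nlgn2. Nlgn2, the neuroligin of inhibitory synapses (chromosome 11, 69823122 to 69837784, minus strand), ranged from 13.9 to 19.3 CPM in KO with a median of 17.5. In WT it ranged from 14.1 to 24.4 CPM with a median of 19.9. All 7 KO libraries lay below the WT median, while WT replicate 1 was near the bottom of the KO range. Its log2 fold change was −0.22 (SE 0.104, adjusted p = 0.943, edgeR). The fitted value was −0.41 for Nrxn3, −0.59 for Nlgn1 and −0.26 for Nlgn3. Nlgn3 shares 3823 of its 9271 exon bases with another gene model on the same strand, Gm21986, so its level is uncertain.

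In the vesicle and release class, 13 of 14 genes had fitted values below 0, with a median of −0.28, and Vamp2 was the exception. Vamp2 (chromosome 11, 69088490 to 69092384, plus strand) ranged from 41.3 to 56.5 CPM in KO, median 45.2, and from 42.7 to 52.9 CPM in WT, median 46.5. The WT libraries lay wholly within the KO range, and the log2 fold change was 0.04 (SE 0.0673, adjusted p = 0.962, edgeR), or −0.01 without KO replicate 4. Rims1, an active zone organiser, ranged from 0.353 to 1.17 CPM in KO (median 0.666) and from 0.439 to 1.58 CPM in WT (median 0.975). It had the smallest p of the class, with a log2 fold change of −0.59 (SE 0.282, adjusted p = 0.943, edgeR).

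Several proteins of the fusion machinery showed the same high libraries. Snap25, the plasma membrane SNARE, ranged from 2.56 to 9.38 CPM in KO (median 3.60) and from 3.92 to 13.6 CPM in WT (median 4.57). Syt1, the calcium sensor of fast release, ranged from 0.570 to 1.69 CPM in KO (median 0.959) and from 1.11 to 2.49 CPM in WT (median 1.32). Replicate 2 was the highest library of either genotype for both genes, and the groups overlapped. Syp, a protein of the vesicle membrane, ranged from 2.54 to 5.50 CPM in KO (median 3.09) and from 2.72 to 6.74 CPM in WT (median 4.05). For Cplx1, a complexin that clamps the SNARE complex, the range was 1.04 to 3.57 CPM in KO (median 1.46) and 1.20 to 4.16 CPM in WT (median 2.39). Again replicate 2 was highest in both genotypes. The log2 fold changes were −0.43 for Snap25 (SE 0.355), −0.47 for Syt1 (SE 0.242), −0.29 for Syp (SE 0.212) and −0.34 for Cplx1 (SE 0.302), each with an adjusted p of 0.943 in edgeR. Without WT replicate 2 they were −0.16, −0.30, −0.14 and −0.15 in that order, and without KO replicate 2 they were −0.67 for Snap25, −0.45 for Syp and −0.58 for Cplx1. With the replicate block, Snap25 passed in DESeq2 (adjusted p = 0.0401). In edgeR with the block its SE was 0.0821 (adjusted p = 0.404), and Syt1, Syp and Cplx1 had adjusted p of 0.759, 0.771 and 0.771. KO was below the same-numbered WT library in all 7 pairs for Snap25 and Syp, and in 6 for Syt1 and Cplx1. Grin1, Homer1 and Slc17a7 were among other synaptic genes with 6. No share over all tested genes is given for these counts, and the replicate numbers were not taken as pairs.

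The synapsin Syn2, which tethers vesicles in reserve, ranged from 0.691 to 2.30 CPM in KO (median 1.33) and from 1.01 to 3.31 CPM in WT (median 2.32). All 7 KO libraries lay below the WT median, and the groups overlapped, with a log2 fold change of −0.53 (SE 0.283, adjusted p = 0.943, edgeR). The fitted values of the other genes of the class were −0.22 for Syn1, −0.21 for Syt11, −0.10 for Stx1a, −0.35 for Cplx2, −0.04 for Bsn, −0.28 for Pclo and −0.18 for Sv2a. No genotype difference was detectable for them at the spread of these cultures.

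Transmitter transporters and synthetic enzymes were divided, with 3 of 5 genes below 0. Slc17a7 (chromosome 7, 45163949 to 45176142, plus strand) ranged from 0.480 to 3.49 CPM in KO, median 1.33, and from 1.25 to 3.60 CPM in WT, median 2.57. KO replicate 2 came close to the top of the WT range, whereas KO replicates 3, 4 and 7 lay below all WT libraries. The log2 fold change was −0.59 (SE 0.381, adjusted p = 0.943, edgeR), or −0.90 without KO replicate 2. In edgeR with the replicate block it was −0.72 (SE 0.186, adjusted p = 0.728). The GABA-synthesising enzymes Gad1 and Gad2 had fitted values of −0.30 and −0.49. The vesicular transporters Slc17a6, for glutamate, and Slc32a1, for GABA, had 0.08 and 0.42.

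**Figure D3:**
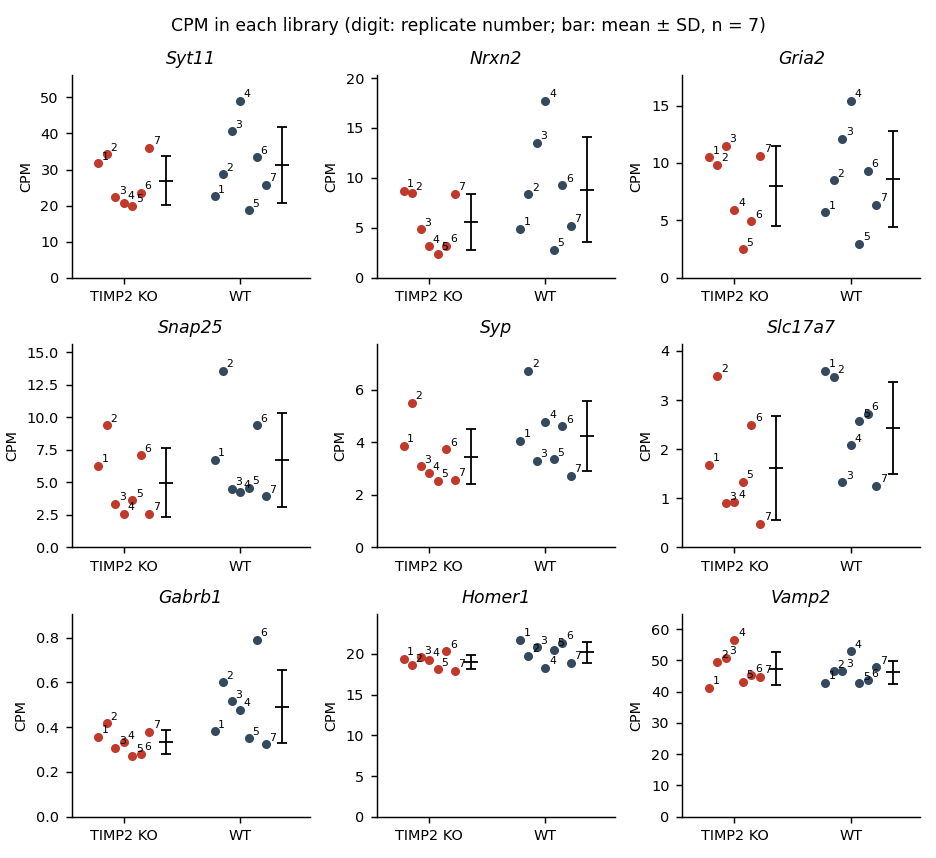
CPM of 9 genes in each of the 7 TIMP2 KO (red) and 7 WT (dark blue) libraries, with the replicate number beside each point and the mean ± SD at the right of each group. KO and WT points overlap for every gene; WT replicate 4 is highest for Syt11 at 49.0 CPM, while WT replicate 2 is highest for Snap25 at 13.6 CPM.

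A wider list of 89 other synaptic genes gave a like picture. Of its 78 tested genes, 0 passed the adjusted threshold in edgeR, 63 had fitted values below 0, and the median was −0.16. At an unadjusted p under 0.05 were 4 of the 78, all lower in KO, beside 1.62% of all tested genes lower at that threshold and 49.2% with fitted values below 0. They were the widely expressed kinase subunit Camk2d (140 ± 5.95 CPM in WT and 132 ± 4.95 in KO, mean ± SD, n = 7 each; log2 fold change −0.09), the NMDA subunit Grin2c (1.32 ± 0.274 and 0.887 ± 0.369 CPM; −0.57), the vesicle protein Rph3a (1.33 ± 0.646 and 0.784 ± 0.387 CPM; −0.75) and the adhesion molecule Lrrtm3 (0.198 to 0.601 CPM in WT and 0.119 to 0.408 CPM in KO; −0.68). Each had an adjusted p of 0.943.

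Across cultures, the synaptic genes varied together. With the mean of each genotype removed from log2 CPM, 752 of the 861 pairs of tested synaptic genes (87.3%) had a Pearson r above 0 over the 14 libraries, and the median r was 0.53 (Spearman 0.55). Among all pairs of tested genes, 49.9% were above 0. The points of each pair share libraries and their scaling, so these r values are a description. The median r was highest within the adhesion class (0.70) and lowest within the scaffolds and kinases (0.39). The closest pairs crossed the classes, with r = 0.97 for Gria3 with Nrxn2 and for Grin1 with Snap25, and 0.96 for Grin1 with Syt1 and for Nrxn2 with Syt11. Within the vesicle class, Syp had an r of 0.95 with both Cplx1 and Pclo. Dlg4 and Homer1, both abundant scaffolds, had one of the lowest values, at −0.58.

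A few libraries carried the high values. KO replicate 2 was the highest KO library for 18 of the 43 genes and KO replicate 1 for 14. Among WT libraries, replicate 2 was highest for 22 genes and replicate 4 for 12. The lowest values fell to WT replicate 5 for 19 genes and WT replicate 7 for 16, and in KO to replicates 4 and 5 for 15 genes each. Among the genes outside the list whose values followed the mean pattern of the synaptic genes most closely were Kcnc1, Spock2, Syndig1, Rian, Cadm3, Disp2, Fam131b, Map7d2 and Kif5a, with Pearson r between 0.94 and 0.96 over 14 libraries.

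**Figure D4:**
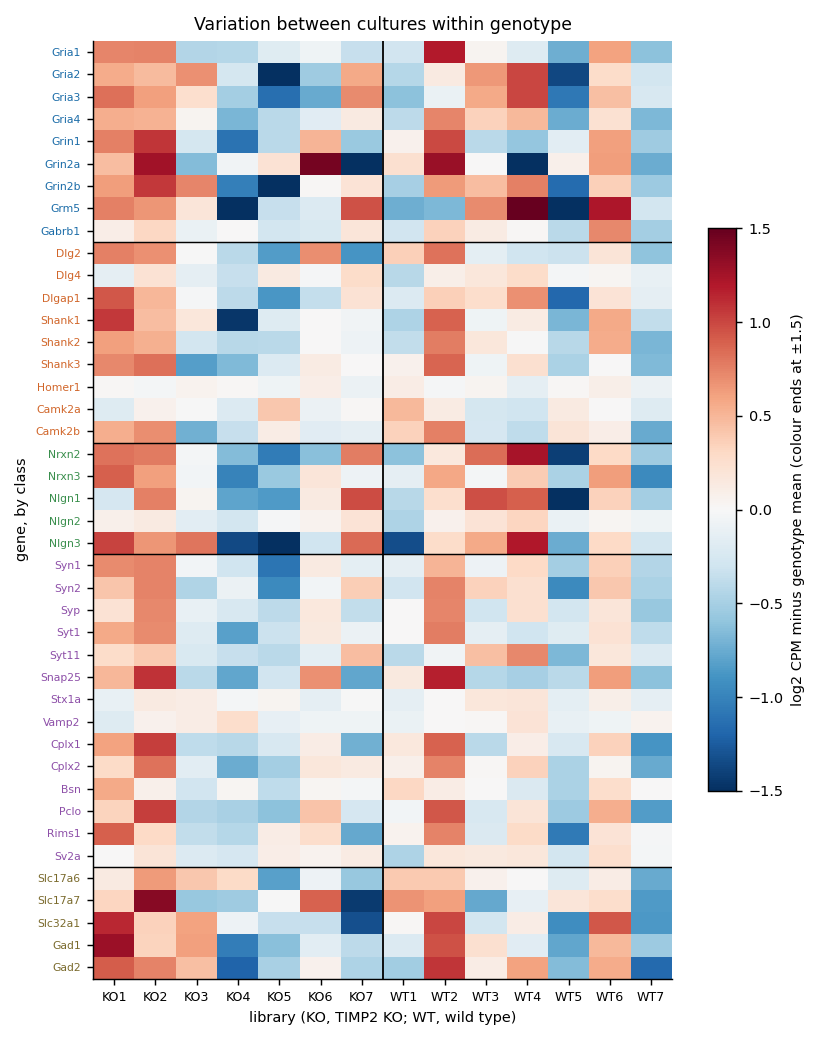
Log2 CPM of the 42 tested genes in each library after the genotype mean was subtracted, red above and blue below it, with genes in rows by class and the 7 TIMP2 KO libraries left of the 7 WT libraries. KO replicates 1 and 2 and WT replicates 2, 4 and 6 are red for many genes, and WT replicate 4 is red for Nrxn2, Nlgn1 and Syt11 but blue for Snap25 and Grin2a.

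These differences between cultures were set against marker levels of other cells. Each tested gene was correlated, within genotype, with the summed level of neuron, astrocyte and oligodendrocyte lineage markers, using permutations of the libraries within genotype and adjustment over all tested genes for each list. Neuron marker level was related to 15 of 42 synaptic genes at an adjusted p under 0.05, all with r above 0, against 9.92% of all genes in that direction. Astrocyte marker level was related to 12 of 42, against 10.1%, and oligodendrocyte lineage marker level to 9 of 42, against 3.9%. The median r of the synaptic genes was 0.59, 0.54 and 0.51 in that order, and −0.09, −0.08 and −0.07 over all genes. Without the 2 libraries farthest from the median marker level (KO replicate 5 and WT replicate 4 for neuron and astrocyte markers, KO replicate 4 and WT replicate 4 for oligodendrocyte lineage markers), 7, 8 and 0 genes passed, against 3.68%, 5.96% and 0.0191% of all genes in the same direction. The median r of the synaptic genes was then 0.67, 0.52 and 0.41. Elavl4, the neuron marker with the highest mean (14.5 CPM), was highest among WT libraries in replicate 5, where the summed neuron markers were lowest. With each list taken as a mean z-score instead of a sum, 20, 13 and 14 of 42 genes passed. Over all genes, 7.76%, 10.6% and 6.18% passed in the same direction. The median r was 0.71, 0.57 and 0.65. The z-score setting was chosen after seeing the data.

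The 3 marker levels moved together, with r = 0.88 between neuron and astrocyte markers (Spearman 0.88), 0.71 between neuron and oligodendrocyte lineage markers (Spearman 0.79) and 0.88 between astrocyte and oligodendrocyte lineage markers (Spearman 0.94), so they are not separate evidence. Of the 42 genes, 18 passed with at least 1 list, 6 with all lists and 24 with none.

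The receptor and adhesion classes held most of the genes related to astrocyte markers, 9 of 12. For receptors, 5 of 9 genes passed with both lists, namely Gria2, Gria3, Gria4, Grin2b and Grm5. For adhesion, 4 of 5 passed with each list, and Nrxn2, Nlgn1 and Nlgn3 passed with both. Without the 2 farthest libraries, Nrxn2 was the adhesion gene that still passed with neuron markers (adjusted p of Nlgn1, Nlgn3 and Nrxn3, 0.0833, 0.0657 and 0.0786), and Nlgn2 no longer passed with astrocyte markers (adjusted p = 0.069). Of the receptors, Grm5 lost the call with neuron markers (adjusted p = 0.0912), and Gria4 and Grin2b lost that with astrocyte markers (adjusted p = 0.094 and 0.11). Syt11 had the closest relation to astrocyte markers, with r = 0.99 and rho = 0.99 over 14 libraries (adjusted p = 0.000504 and 0.000751, permutation test), and r = 0.99 without the 2 farthest libraries (adjusted p = 0.00567). It ranged from 19.9 to 36.1 CPM in KO, where replicates 1, 2 and 7 were highest, and from 18.7 to 49.0 CPM in WT, where replicates 3 and 4 were highest. Nrxn2 had r = 0.97 and rho = 0.94 (adjusted p = 0.000504 and 0.00108, permutation test), and 0.96 without the 2 libraries (adjusted p = 0.00723). Per-library values of Syt11 and Nrxn2 were singled out after their relations were seen. The scaffold gene Dlgap1 was related to both lists too, with r = 0.93 to neuron markers (rho = 0.96) and 0.87 to astrocyte markers (rho = 0.87).

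Nlgn2, Dlg4 and Sv2a, from 3 different classes and all abundant, were related to the oligodendrocyte lineage markers, with r = 0.94, 0.88 and 0.86 (adjusted p = 0.00713, 0.0144 and 0.0171, permutation test). Most of that summed level came from Mbp and Cnp. Cnp was highest in replicate 5 of both genotypes, where Olig1, Olig2 and Cspg4 were lowest. Without WT replicate 4 and KO replicate 4, the r of Nlgn2, Dlg4 and Sv2a was 0.90, 0.80 and 0.87, and none passed the adjusted threshold. With all libraries, Syt11 had r = 0.90 and Grm5 r = 0.87 to the same markers, and Nlgn2 passed with astrocyte markers too (r = 0.78).

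Another group did not follow the summed level of these markers at a detectable level. Snap25 had r = 0.31 to neuron markers and 0.09 to astrocyte markers, Grin1 0.35 and 0.14, Camk2b 0.18 and 0.01, and Slc17a7 0.07 and −0.19. They are 4 of the 24 genes that passed with no list and were picked after their values were seen. Snap25, Grin1 and Camk2b were highest in replicate 2 of both genotypes, and Slc17a7 in KO replicate 2 and WT replicate 1. None of these was the library with the highest summed astrocyte or neuron markers of its genotype. Single neuron markers were divided. Nefl and Nefm were highest in KO replicate 2 and WT replicate 2, and Rbfox3 in KO replicate 2 and WT replicate 1. Stmn2 and Myt1l were highest in KO replicate 1 and WT replicate 2. Tubb3, Map2, Elavl3 and Celf4 were highest in KO replicate 1 and WT replicate 4, as was the sum. Dcx and Gap43 were highest in WT replicate 4 too, and Elavl4 in WT replicate 5. Snap25 had r = 0.97 with Grin1 and 0.85 with Slc17a7. Homer1 and Camk2a had r of −0.34 and −0.57 to astrocyte markers and −0.12 and −0.45 to neuron markers, none past the adjusted threshold. In the plot of both correlations, the synaptic genes spread along the diagonal from Camk2a to Nrxn2, since both marker levels moved together.

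**Figure D5:**
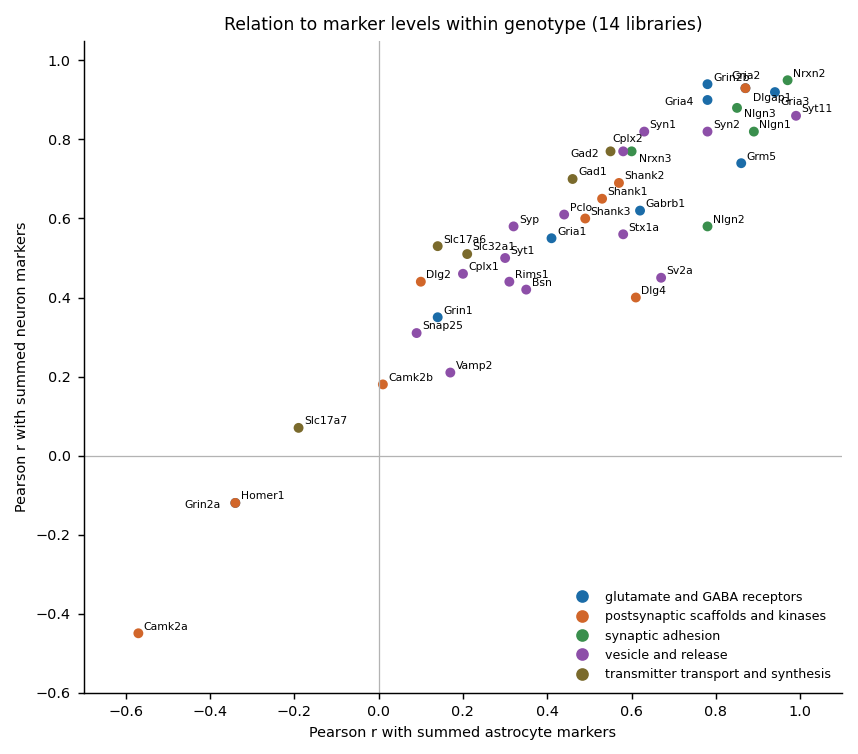
Pearson r of each of the 42 tested genes with summed astrocyte markers (x axis) and with summed neuron markers (y axis) over 14 libraries after the genotype mean was removed, coloured by class. Nrxn2 (0.97 and 0.95) and Syt11 (0.99 and 0.86) lie at the upper right, Snap25 (0.09 and 0.31) and Slc17a7 (−0.19 and 0.07) lie near the centre, and Camk2a (−0.57 and −0.45) at the lower left.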

How the data were processed

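Messenger RNA of 14 primary microglia cultures was sequenced as paired-end reads after poly(A) selection. The authors deposited raw counts per Ensembl gene, whole numbers that were not normalized. Trimmomatic 0.36, STAR 2.5.2b, featureCounts (Subread 1.5.2), DESeq2 and the build GRCm38 are named in the submitters' processing notes. The strand setting and annotation release are not given in the sources used here, and 15 of the 43 genes share exon bases with a gene on the opposite strand. The authors modelled batch, but the labels give no batch per library, so none was fitted here. Replicates are independent isolations from pooled pups.

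Genotype and replicate were taken from the sample labels. Gene names, positions and exon lengths came from GENCODE M21, which matched 49056 of 49315 genes. No count column was left out. All genes were fitted with edgeR 4.0.16 in R 4.3.3 (quasi-likelihood F-test, TMM, default filterByExpr with a minimum count of 10, two-sided, Benjamini-Hochberg adjustment over 15700 genes). CPM used TMM library sizes, and correlations used log2 CPM with a prior count of 1. Marker sums were compared by exact permutation over all 3432 arrangements of libraries, two-sided, with a smallest possible p of 0.000583. Correlations were tested with 100000 permutations within genotype (numpy 2.4.6), two-sided, for 3 marker lists, with adjustment over all tested genes. Both procedures were tested on simulated data. Depth was similar in all libraries, and 3 counts correspond to between 0.0624 and 0.0772 CPM, so genes near 0.1 CPM carry large counting error. Promoters and motifs came from RefSeq sequence of GRCm38.p6.

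The genes described with full values were, in each class, the gene with the highest level per kb and that with the smallest p, and any gene with an unadjusted p under 0.05 without or with the replicate number in the model. Of the other synaptic genes, those with an unadjusted p under 0.05 were named, and of the remaining genes the 10 most like the mean pattern, of which 1 is not reported here. The members and lists were chosen with earlier results of these data known. Alternatives were DESeq2 1.42.0, limma-voom (limma 3.58.1), other scaling, other filters, the replicate number as a block and leaving out each library.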

Additional observations from a re-analysis of the deposited data

Results flagged for a closer look

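In 4 of the 86 sets of 7 libraries examined (43 genes in 2 genotypes), a single library stood farther from the rest than Dixon's 95% limit allows. Chance flags about 1 in 20 such sets. KO replicate 3 had 0.378 CPM of Grm7 (16 counts), against 0.153 CPM in the next KO library. KO replicate 5 had 2.89 CPM of Camk2a, against 2.30 in the next. WT replicate 2 had 2.49 CPM of Syt1, against 1.69 in the next. KO replicate 1 had 24.2 CPM of Bsn, against 17.3 in the next.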

How the results depend on the processing

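No synaptic gene passed an adjusted p of 0.05 in any of the 22 alternative fits apart from Snap25 in DESeq2 with the replicate block, where the count was 1 (log2 fold change −0.45, adjusted p = 0.0401). The count of genes at an unadjusted p under 0.05, 1 in the reported fit, was 10 in edgeR with the replicate block, 7 in DESeq2 with the replicate block, 3 in DESeq2, 2 with upper-quartile factors, 3 with no filter on low counts, 0 of 31 with at least 1 CPM in 7 libraries, and 0 to 7 when single libraries were left out. The share of all tested genes at that threshold was 5.87%, 1.65%, 2.04%, 3.74%, 3.83% and 3.46% in those fits, up to the stricter filter, against 3.37% in the reported fit. The count with a fitted value below 0 stayed between 35 and 39 and the median between −0.45 and −0.15 in the fits without a library. Upper-quartile factors placed 57.0% of all tested genes below 0, against 49.2%. The direction turned when a library was left out for Gria2 (range −0.26 to 0.08), Vamp2 (−0.01 to 0.07) and the summed border macrophage markers (0.836 CPM, range −26.5 to 41.3). The replicate numbers were not taken as pairs, since not every same-numbered KO and WT correlation was over 0.1. They lay between −0.196 and 0.743, with 3 of 7 over 0.1, a mean of 0.103 against −0.0156 for other pairs, and the own number highest in 1 of 7. With sign flips of same-numbered libraries (replicate block), the microglia marker difference of 488 CPM had an exact permutation p of 0.0312 and the endothelial marker difference of 7.32 CPM one of 0.0156, against 0.195 and 0.147 without pairing. Without the 2 farthest libraries, the genes related to neuron and oligodendrocyte lineage markers numbered 7 and 0, and with Spearman's rho in those libraries 4, 6 and 2 for neuron, astrocyte and oligodendrocyte lineage markers. With marker levels as a mean z-score, 14 genes were related to oligodendrocyte lineage markers. These last 2 settings were chosen after seeing the data. In all other comparisons of an alternative with the reported value, 485 in number, the direction and the side of the threshold held, or the value moved by less than the set tolerance. The cause of these shifts was not tested. Genes with few counts, such as Grin2a and Gabrb1, are limited by depth.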
